A study of Mus musculus with 6 samples.

Results

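The 9 genes followed here belong to the phagocyte NADPH oxidase and to the defence against superoxide and hydrogen peroxide, and were compared between control and PGAM5 KD macrophages after LPS. They were chosen by name, and all 9 were found among the 54532 genes listed for each library. The oxidase genes were Cybb, Cyba, Ncf1, Ncf4 and Rac2, and the detoxifying enzymes were Sod1, Sod2, Cat and Gpx1. RNA-seq was done on 6 libraries of iBMDMs, which are bone marrow-derived macrophages of C57Bl/6 mice immortalized with retroviruses carrying v-raf and v-myc. The 3 control libraries came from cells infected with a lentivirus carrying a control shRNA, and the 3 PGAM5 KD libraries from cells infected with one carrying an shRNA against Pgam5. Both groups carried the immortalizing oncogenes and an integrated lentivirus, and both had LPS at 100 ng/ml for 4 hours, so no induction over untreated cells was measured. Each group had its own shRNA and its own line, which cannot be told apart from the loss of PGAM5, and it is not given whether the lines were clones or whether replicates were separate cultures. The p-values therefore measure the spread between these libraries, which may be technical.

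The NADPH oxidase of phagocytes passes electrons from NADPH across the membrane to oxygen and makes superoxide. Its membrane core is a heterodimer of gp91phox (Cybb) and p22phox (Cyba), and on activation it is joined by cytosolic proteins that include p47phox (Ncf1), p40phox (Ncf4) and the small GTPase Rac2. Superoxide dismutases, Sod1 in the cytosol and Sod2 in the mitochondrial matrix, turn superoxide into hydrogen peroxide, which catalase (Cat) and glutathione peroxidase 1 (Gpx1) remove.

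In PGAM5 KD iBMDMs the oxidase genes did not move together, and neither did the enzymes. Cybb and Ncf4 fell by 0.50 and 0.31 on the log2 scale and Ncf1 rose by 0.16, while Cyba had a log2 fold change of 0.08 that did not pass the test. Cat fell by 0.64, the largest change among the 9 genes, whereas Gpx1, which acts on the same substrate, rose by 0.13, a direction that turned with quantile normalization. Sod1 and Sod2 did not pass the test. Of the 5 oxidase genes 2 were lower and 2 higher at an adjusted p under 0.05, and of the 4 enzymes 1 was lower and 1 higher. In the same fit (limma on log2(FPKM + 1), Benjamini-Hochberg adjustment) 31.7% of the 10540 genes tested passed, 16.8% as higher and 14.9% as lower in PGAM5 KD cells. The split depends on scaling, since 1771 genes were higher and 1575 lower with FPKM but 1088 higher and 2282 lower with TPM. The rises of Ncf1, Rac2 and Gpx1 were small, and each lost its call when the libraries were scaled to TPM or quantile normalized, as given beside each gene. None of the 9 genes changed by more than 1 on the log2 scale, which 1.32% of the genes tested did at an adjusted p under 0.05.

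The promoters of 2 pairs of genes that diverged are shown first, Cybb and Cyba for the 2 chains of the membrane core and Cat and Gpx1 for the enzymes that remove hydrogen peroxide. Of the 9 genes, 7 had an entry among the RefSeq promoters of GRCm38.p6, which run from 250 bases before to 50 bases after the annotated start, and Ncf4 and Rac2 had none. Capitals mark matches on either strand to 6 motifs: GAGGAA (the PU.1 type of ETS motif), GAAANNGAA (the core of interferon regulatory factor motifs), CCAAT (bound by NF-Y), GGGCGG (the GC box), TGACNNNGC (the antioxidant response element) and TATAAA. The windows are chrX:9469275-9469574 (minus strand) for Cybb, chr8:122432891-122433190 (minus strand) for Cyba, chr2:103485104-103485403 (minus strand) for Cat and chr9:108338830-108339129 (plus strand) for Gpx1.
Cybb: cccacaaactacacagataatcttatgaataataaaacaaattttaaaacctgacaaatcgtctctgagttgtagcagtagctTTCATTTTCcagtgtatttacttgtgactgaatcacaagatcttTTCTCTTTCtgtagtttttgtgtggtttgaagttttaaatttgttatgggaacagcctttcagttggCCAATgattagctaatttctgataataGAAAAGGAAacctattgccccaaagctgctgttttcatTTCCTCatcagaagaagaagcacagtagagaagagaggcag
Cyba: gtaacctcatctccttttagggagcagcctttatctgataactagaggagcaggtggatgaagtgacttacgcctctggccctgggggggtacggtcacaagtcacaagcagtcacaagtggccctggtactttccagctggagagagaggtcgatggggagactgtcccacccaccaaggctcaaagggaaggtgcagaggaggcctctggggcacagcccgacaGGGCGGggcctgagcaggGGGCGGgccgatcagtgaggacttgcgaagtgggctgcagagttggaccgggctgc
Cat: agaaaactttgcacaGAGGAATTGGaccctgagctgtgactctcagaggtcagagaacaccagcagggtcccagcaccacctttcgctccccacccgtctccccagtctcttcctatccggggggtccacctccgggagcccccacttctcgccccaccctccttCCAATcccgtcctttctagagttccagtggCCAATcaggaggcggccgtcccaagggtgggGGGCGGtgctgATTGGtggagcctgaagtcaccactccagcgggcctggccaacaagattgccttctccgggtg
Gpx1: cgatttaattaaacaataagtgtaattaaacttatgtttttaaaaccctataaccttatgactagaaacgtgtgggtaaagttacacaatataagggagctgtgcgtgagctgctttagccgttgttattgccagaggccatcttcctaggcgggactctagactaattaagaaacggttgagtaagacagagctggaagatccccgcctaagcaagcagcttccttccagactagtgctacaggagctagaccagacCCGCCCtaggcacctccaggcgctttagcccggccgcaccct

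In the Cybb window 3 matches to GAAANNGAA, 1 to CCAAT and 1 to GAGGAA were found, while the Cyba window held 2 matches to GGGCGG and none to the other 5 motifs. The Cat window held 4 matches to CCAAT, 1 of them overlapping its GAGGAA match, and 1 to GGGCGG. The Gpx1 window held 1 match to GGGCGG and none to the others. Of all 32851 promoter windows of this length, 8.56% held GAAANNGAA, 37.4% CCAAT, 35.7% GGGCGG, 28.3% GAGGAA, 12.4% TGACNNNGC and 13.6% TATAAA. GAAANNGAA was present in 2 of the 7 windows, those of Cybb and Ncf1, and these genes moved in opposite directions. TGACNNNGC and TATAAA were each found in the Sod1 window alone among the 7, and Sod1 also held 4 matches to GGGCGG, as did Sod2. A match describes the letters in a window and not a bound site.

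The libraries held between 18163464 and 24388917 fragments, recovered from the deposited FPKM, and 1457 to 13959 fragments fell on each of the 9 genes in each library. The counting error of the smallest of these values is 2.62% of the value, and the intervals given are those of limma over libraries. Pgam5 fell from 14.5 ± 2.27 FPKM in control cells to 4.87 ± 0.77 FPKM after knockdown (SD, n = 3; log2 fold change -1.40, standard error 0.13), and the groups did not overlap. Of 10 macrophage markers, Lyz2 (1666 and 1265 FPKM), Cd68 (468 and 406), Cd14 (461 and 683), Csf1r (231 and 148), Lgals3 (228 and 227) and Spi1 (170 and 165) were the most abundant in means of control and PGAM5 KD cells. Adgre1 (7.93 and 15.1 FPKM), Fcgr1 (4.34 and 14.1 FPKM) and Itgam (2.41 and 4.46 FPKM) were low, and Mertk was at 0. Of the 9 tested, Fcgr1, Adgre1, Itgam and Cd14 were higher in PGAM5 KD cells (log2 fold changes 1.51, 0.85, 0.68 and 0.56) and Csf1r, Lyz2 and Cd68 lower (-0.64, -0.40 and -0.20). Neutrophils express the oxidase strongly, and the summed level of 10 neutrophil markers was between 0 and 0.254 FPKM in control and between 0.145 and 0.568 FPKM in PGAM5 KD libraries, with Ly6g, Mpo and Elane at 0 in all 6. Summed lymphocyte markers reached 2.41 FPKM in control and 3.37 FPKM in PGAM5 KD libraries, mostly from Lck, and summed fibroblast markers at most 0.0168 FPKM. The part of the macrophage markers in the results below was not tested, and fewer cells expressing a gene and less RNA per cell cannot be told apart in bulk libraries.

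**Figure D1:**
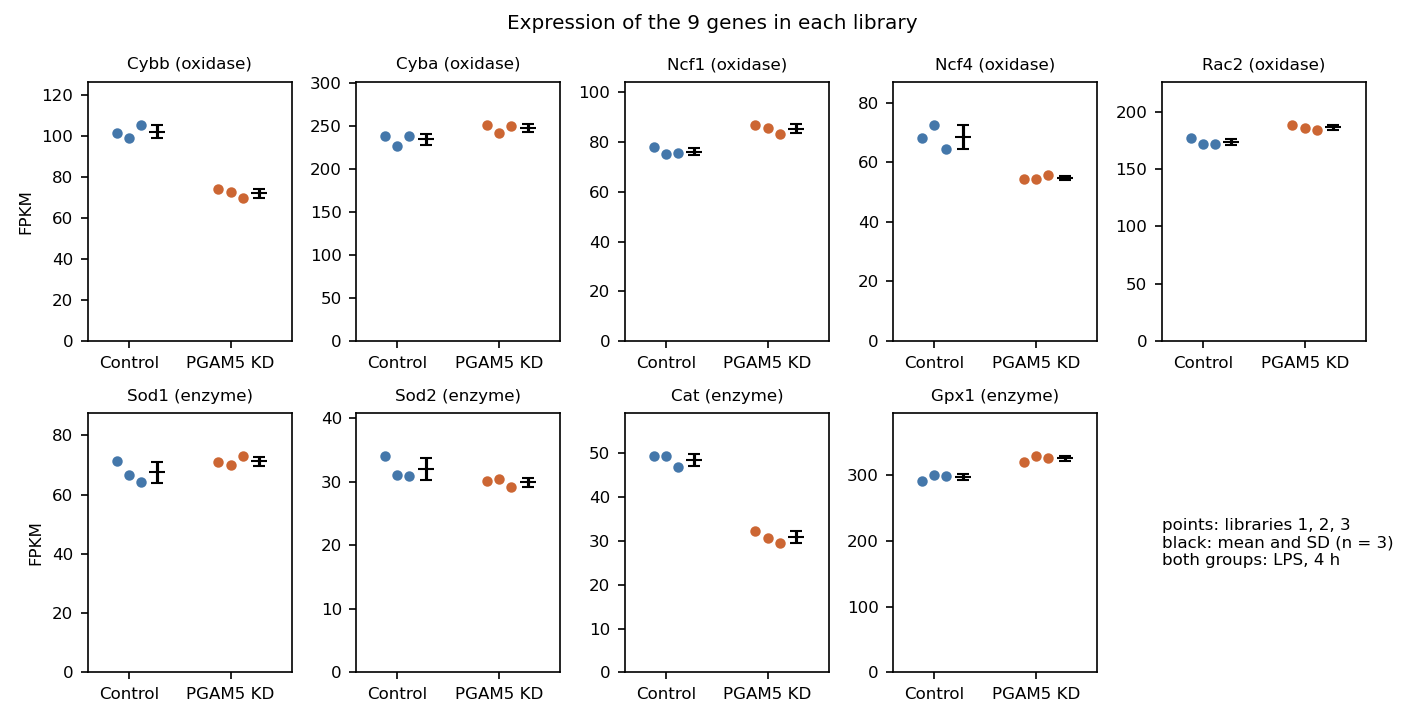
Expression in FPKM (vertical axes, each from 0) of the 5 oxidase genes (upper row) and the 4 detoxifying enzymes (lower row) in each of 3 control and 3 PGAM5 KD libraries (points), with the mean and SD in black. Cybb (102 to 72.2 FPKM on average), Ncf4 (68.5 to 54.8 FPKM) and Cat (48.4 to 30.8 FPKM) are clearly lower in PGAM5 KD libraries, and the other genes differ by little.

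Cybb (ENSMUSG00000015340) encodes gp91phox, the catalytic chain that carries heme and FAD, and is found at positions 9435252 to 9487771 of chromosome X (GRCm38, minus strand). Its level was 101, 99.4 and 106 FPKM in control libraries 1, 2 and 3 and 74.0, 72.8 and 69.7 FPKM in PGAM5 KD libraries 1, 2 and 3. Every PGAM5 KD library was below every control library, as was the case in either direction for 47.1% of the genes tested. The means were 102 ± 3.19 and 72.2 ± 2.24 FPKM (SD, n = 3), and the log2 fold change was -0.50 (standard error 0.04, 95% interval -0.59 to -0.40, adjusted p = 0.000186 from limma). With 3 libraries against 3, an exact two-sided permutation test cannot go below p = 0.1, the value it gave for Cybb.

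Cyba (ENSMUSG00000006519) encodes p22phox, without which gp91phox is not stable, and spans 122424776 to 122432930 of chromosome 8 (minus strand). Control libraries had 239, 227 and 238 FPKM and PGAM5 KD libraries 252, 242 and 249.7 FPKM. The groups did not overlap, but they lay close, the lowest PGAM5 KD library being just above the highest control library. The log2 fold change of 0.08 did not pass the test (standard error 0.03, 95% interval 0.0013 to 0.16, adjusted p = 0.112 from limma), and it was -0.000065 with TPM and -0.039 with quantile normalization. The partners of the heterodimer therefore differed in their change, which a ratio within each library shows without any scaling between libraries. Cybb was at 0.425, 0.438 and 0.443 of the FPKM of Cyba in control libraries and at 0.294, 0.301 and 0.279 in PGAM5 KD libraries, so that the mean ratio fell by 33.1%.

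Ncf1 (ENSMUSG00000015950) encodes p47phox, the organizer that brings the cytosolic subunits to the membrane, and spans 134220053 to 134229625 of chromosome 5 (minus strand). It had 77.9, 75.1 and 75.7 FPKM in control libraries and 87.0, 85.8 and 83.4 FPKM in PGAM5 KD libraries. All PGAM5 KD libraries were above all control libraries. The means were 76.2 ± 1.496 and 85.4 ± 1.85 FPKM (SD, n = 3), and Ncf1 rose by 0.16 on the log2 scale (standard error 0.03, 95% interval 0.085 to 0.24, adjusted p = 0.0101 from limma). With TPM it was 0.085 (adjusted p = 0.115 from limma) and with quantile normalization 0.087 (adjusted p = 0.0773 from limma). The 408 exonic bases that Ncf1 shares with Gtf2ird2 on the opposite strand are 11.1% of its exons, and Gtf2ird2 had at most 337 fragments in a library against at least 5185 on Ncf1. Whether counting used strand is not given, so these counts do not show how fragments in the shared bases were assigned.

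Ncf4 (ENSMUSG00000071715) encodes p40phox, which binds phosphatidylinositol 3-phosphate on phagosomes, and spans 78244801 to 78262580 of chromosome 15 (plus strand). It had 68.3, 72.7 and 64.6 FPKM in control libraries and 54.4, 54.4 and 55.7 FPKM in PGAM5 KD libraries. The control libraries were the more spread, with an SD of 4.05 FPKM against 0.734 FPKM, but no library of one group reached the other. Ncf4 fell by 0.31 on the log2 scale (standard error 0.05, 95% interval -0.43 to -0.20, adjusted p = 0.00299 from limma). The ratio of Ncf4 to Ncf1 was 0.877, 0.968 and 0.853 in control libraries and 0.626, 0.633 and 0.668 in PGAM5 KD libraries. It was thus lower in every PGAM5 KD library, and its mean fell by 28.6%.

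Rac2 (ENSMUSG00000033220), the Rac GTPase of blood cells, lies on the same chromosome as Ncf4, on the minus strand from 78559167 to 78572783. Its level was 177, 172 and 172 FPKM in control libraries and 189, 186 and 184 FPKM in PGAM5 KD libraries. The groups did not overlap and differed by 7.30% of the control mean. The log2 fold change of 0.10 passed the test narrowly (standard error 0.03, adjusted p = 0.0306 from limma), and the call was lost in 10 of 16 alternative fits. It was lost without control replicate 2 (adjusted p = 0.0897), control replicate 3 (0.0928) or PGAM5 KD replicate 1 (0.0614), 2 (0.0832) or 3 (0.0602), and with TPM the log2 fold change was 0.023 (adjusted p = 0.609) and with quantile normalization 0.021 (adjusted p = 0.629, all from limma). The ratio of Rac2 to Cyba overlapped between the groups, from 0.722 to 0.759 in control and from 0.739 to 0.770 in PGAM5 KD libraries.

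**Figure D2:**
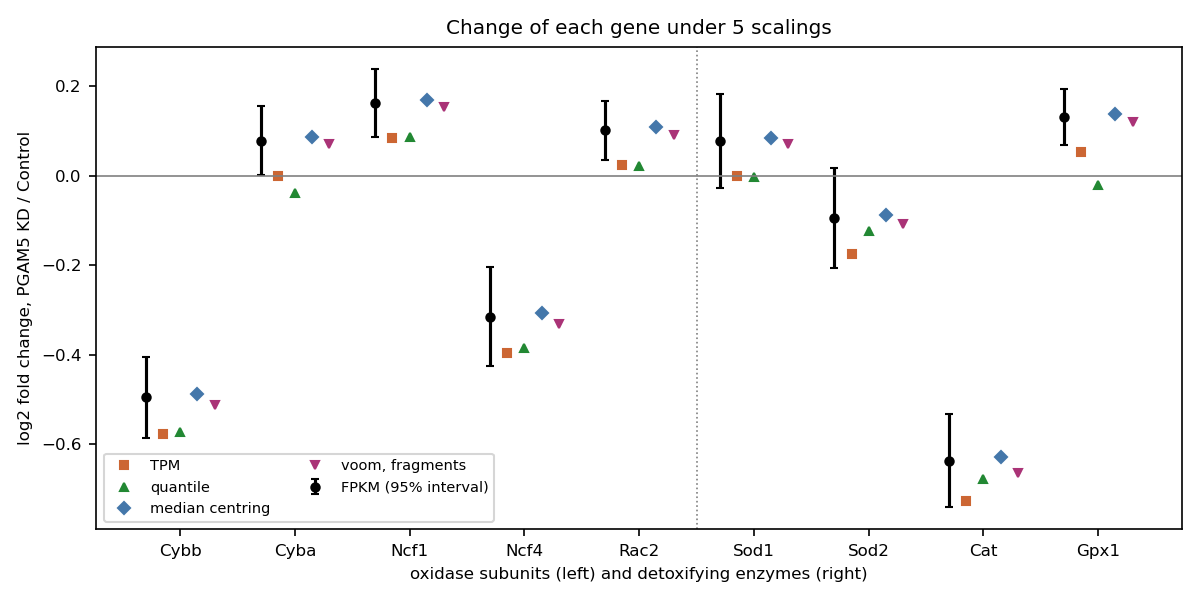
Log2 fold change of PGAM5 KD against control (vertical axis) of each of the 9 genes (horizontal axis, a dotted line parting oxidase genes from enzymes) for FPKM with its 95% interval, TPM, quantile normalization, median centring and voom on recovered fragments. Cybb, Ncf4, Sod2 and Cat are below 0 under all 5, Ncf1 and Rac2 above 0 under all 5 but closer to it with TPM and quantile normalization, and Cyba, Sod1 and Gpx1 cross 0 under 1 or 2 of these scalings.

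Sod1 (ENSMUSG00000022982) encodes the copper and zinc dismutase and spans 90220754 to 90226329 of chromosome 16 (plus strand). It had 71.5, 66.7 and 64.4 FPKM in control libraries and 70.9, 70.0 and 72.9 FPKM in PGAM5 KD libraries. The groups overlapped, with control library 1 above PGAM5 KD libraries 1 and 2. The log2 fold change was 0.08 (standard error 0.04, 95% interval -0.028 to 0.18, adjusted p = 0.23 from limma), and it was -0.0038 with quantile normalization. It was 0.12 without control replicate 1 (adjusted p = 0.0777) and 0.045 without control replicate 3 (adjusted p = 0.512, both from limma). Of the fragments on Sod1 and its 2 similar genes, between 97.5% and 98.6% were on Sod1.

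Sod2 (ENSMUSG00000006818) encodes the manganese dismutase of mitochondria, a gene known to be induced through NF-kB, and spans 13006846 to 13040063 of chromosome 17 (plus strand). It had 34.0, 31.1 and 30.9 FPKM in control libraries and 30.2, 30.4 and 29.1 FPKM in PGAM5 KD libraries. The groups did not overlap, but control libraries 2 and 3 lay closer to the PGAM5 KD libraries than to control library 1. Its log2 fold change of -0.09 did not pass the test (standard error 0.05, 95% interval -0.21 to 0.017, adjusted p = 0.172 from limma). Without control replicate 1 it was -0.052 (adjusted p = 0.411 from limma). It passed with TPM (-0.17, adjusted p = 0.0345) and with voom (-0.11, adjusted p = 0.0428, both from limma). The ratio of Sod2 to Sod1 was 0.476, 0.466 and 0.480 in control libraries and 0.425, 0.434 and 0.400 in PGAM5 KD libraries, lower in each of the latter, and its mean fell by 11.5%.

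Cat (ENSMUSG00000027187) encodes catalase, the peroxisomal enzyme that splits hydrogen peroxide into water and oxygen, and spans 103453849 to 103485160 of chromosome 2 (minus strand). It had 49.2, 49.2 and 46.8 FPKM in control libraries and 32.2, 30.7 and 29.5 FPKM in PGAM5 KD libraries. The gap between the groups was several times the spread within either. The means were 48.4 ± 1.38 and 30.8 ± 1.35 FPKM (SD, n = 3), and Cat fell by 0.64 on the log2 scale (standard error 0.04, 95% interval -0.74 to -0.53, adjusted p = 0.000117 from limma). By the size of its log2 fold change it was number 585 of the 10540 genes tested, and Cybb was number 966.

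The genes whose levels over the 6 libraries were most like those of Cat, by the Euclidean distance of centred log2(FPKM + 1), were Ankrd13b (distance 0.0595), Nceh1 (0.0611) and Vps26a (0.0630). The median distance of the genes tested from Cat was 0.851. Their log2 fold changes of -0.61, -0.63 and -0.64 lie close to that of Cat because the genes were picked by their likeness to it over the same libraries, and are given as a description.

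Gpx1 (ENSMUSG00000063856) encodes a selenoenzyme that reduces hydrogen peroxide with glutathione, and spans 108338903 to 108340343 of chromosome 9 (plus strand). It had 292, 300.1 and 299 FPKM in control libraries and 321, 329 and 327 FPKM in PGAM5 KD libraries. All PGAM5 KD libraries were above all control libraries. Gpx1 rose by 0.13 on the log2 scale (standard error 0.03, 95% interval 0.068 to 0.19, adjusted p = 0.0106 from limma). With TPM it was 0.053 (adjusted p = 0.172), with quantile normalization -0.020 (adjusted p = 0.623) and without a mean-variance trend 0.13 (adjusted p = 0.0531, all from limma). Cat was at 0.169, 0.164 and 0.157 of the FPKM of Gpx1 in control libraries and at 0.1004, 0.0934 and 0.0903 in PGAM5 KD libraries, with no overlap, and the mean ratio fell by 41.9%.

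**Figure D3:**
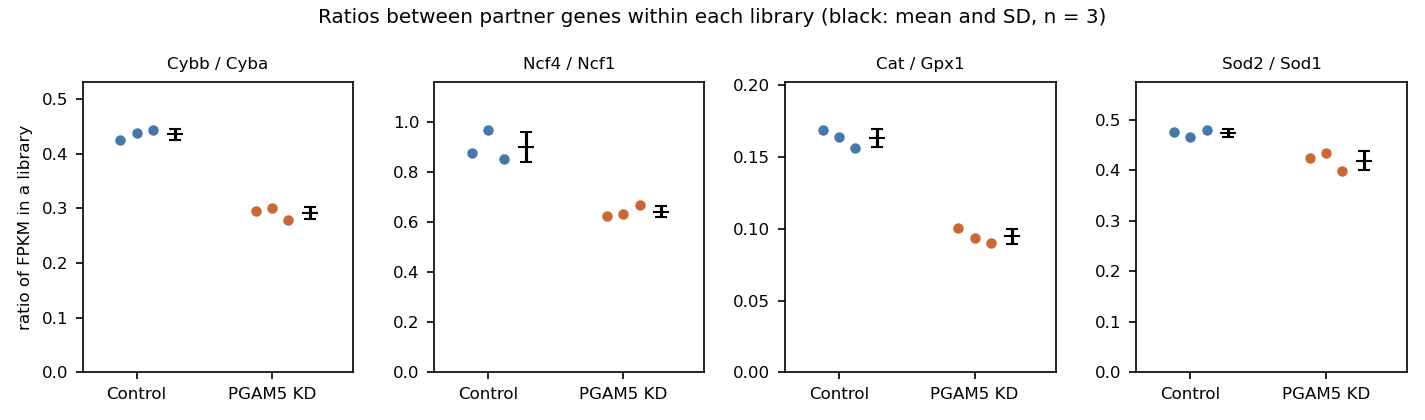
Ratio of the FPKM of 2 genes within a library (vertical axes, each from 0) for Cybb to Cyba, Ncf4 to Ncf1, Cat to Gpx1 and Sod2 to Sod1, in 3 control and 3 PGAM5 KD libraries (points) with mean and SD in black. All 4 ratios are lower in each PGAM5 KD library than in any control library. The numerator of each is the gene with the lower log2 fold change, so the shared direction follows from how the ratios were set up. How often ratios of other gene pairs do not overlap was not computed. The mean of Cybb to Cyba fell by 33.1%, that of Ncf4 to Ncf1 fell by 28.6%, that of Cat to Gpx1 fell by 41.9% and that of Sod2 to Sod1 fell by 11.5%.

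Oxidase genes and detoxifying enzymes were then compared as groups, with no test since the genes were chosen by name with earlier results known. The mean log2(FPKM + 1) of the 5 oxidase genes exceeded that of the 4 enzymes by 0.607, 0.631 and 0.665 in control libraries and by 0.678, 0.664 and 0.672 in PGAM5 KD libraries. The groups overlapped, since control library 3 was above PGAM5 KD library 2, and the mean moved by 0.037 against an SD within groups of 0.021. The excess itself rests on the length that FPKM divides by: per kilobase of the longest coding transcript, a choice made after seeing the data, it ranged from -0.0097 to 0.049 over the control libraries and from 0.047 to 0.061 over the PGAM5 KD libraries, while the mean moved by 0.036. The median log2 fold change was 0.078 for the oxidase genes and -0.0084 for the enzymes, beside 0.013 for all genes tested. The median of the oxidase genes is the value of Cyba, which did not pass the test and was -0.000065 with TPM and -0.039 with quantile normalization. Summed FPKM of the oxidase genes was 655 ± 8.67 in control and 647 ± 7.99 in PGAM5 KD libraries (SD, n = 3), and that of the enzymes 445 ± 3.25 and 457 ± 3.07.

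Within the sums of the oxidase genes and of the enzymes the make-up changed. The share of Cybb in the summed FPKM of the oxidase genes was 15.6% ± 0.445 in control and 11.2% ± 0.281 in PGAM5 KD libraries (SD, n = 3), and that of Ncf4 was 10.5% ± 0.716 and 8.48% ± 0.179. The shares of Cyba (35.8% and 38.3%), Rac2 (26.5% and 28.8%) and Ncf1 (11.6% and 13.2%) were higher by the same account. Shares of the same sum cannot all fall, so these rises restate in part the falls of Cybb and Ncf4. The change of Cyba itself did not pass the test. Among the enzymes Cat made up 10.9% ± 0.233 and 6.74% ± 0.332 of the sum and Gpx1 66.7% ± 1.26 and 71.1% ± 0.451. The same limit applies to the share of Gpx1 beside that of Cat. Per kilobase of the coding transcript Cat made up 5.26% ± 0.0808 and 3.21% ± 0.167, Gpx1 43.4% ± 1.57 and 45.5% ± 0.534, and Sod1 45.4% ± 1.40 and 46.0% ± 0.669, so the shares of the enzymes depend on the length given to Sod1.

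By level, Gpx1 stood first in both groups with 297 and 325 FPKM, followed by Cyba (235 and 248 FPKM) and Rac2 (174 and 186 FPKM), and none of these overlapped with its neighbours. In control libraries Cybb, Ncf1, Ncf4, Sod1, Cat and Sod2 followed, of which Ncf4 and Sod1 could not be ordered, since their libraries overlapped. In PGAM5 KD libraries Ncf1 stood above Cybb, Cybb and Sod1 overlapped, and so did Cat and Sod2 at 30.8 and 29.9 FPKM. FPKM divides by all exons of a gene, which penalizes genes with long alternative transcripts. The 3970 exonic bases of Sod1 include a retained-intron transcript, while its coding transcript has 641 bases. Per kilobase of the coding transcript the level of Sod1 in control cells would be 418 ± 22.3, beside 399 ± 6.17 for Gpx1 and 328 ± 9.40 for Cyba (SD, n = 3), so the place of Sod1 depends on that length. Sod2 would stand above Cat by this length, at 54.7 ± 2.95 against 48.4 ± 1.38 in control and 51.0 ± 1.12 against 30.8 ± 1.35 in PGAM5 KD cells (SD, n = 3), in reverse of the FPKM order in control cells. A fold change of a gene uses the same length in both groups.

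Of 17 other genes of the oxidase family and its regulators, 7 passed the filter of a mean of 1 FPKM, and 2 of these were higher and 2 lower in PGAM5 KD cells, beside 16.8% higher and 14.9% lower over all genes tested. Rap1a, a small GTPase that copurifies with the membrane core, rose by 0.26 (39.3 to 47.3 FPKM). Cybc1, a chaperone needed for gp91phox protein, rose from 5.92 to 7.09 FPKM (log2 fold change 0.22, adjusted p = 0.0343 from limma), and its call was lost in 8 of 16 alternative fits. These were the fits without control replicate 1 or 3 or PGAM5 KD replicate 1 or 2, with TPM, voom, no filter or a replicate block, among which the adjusted p reached 0.106.

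Prkcd, the kinase PKC-delta that phosphorylates p47phox, fell from 26.9 to 22.1 FPKM (log2 fold change -0.28, adjusted p = 0.00502 from limma). Prex1, an exchange factor for Rac, fell from 21.2 to 18.8 FPKM (-0.16 on the log2 scale, limma adjusted p = 0.0456), a call lost in 9 of 16 alternative fits. These included the fits without each control replicate and without PGAM5 KD replicate 2 or 3, and the adjusted p reached 0.13. Rac1 (0.10), the exchange factors Vav1 (-0.026) and Dock2 (0.016) did not pass, with adjusted p of 0.145, 0.606 and 0.845 from limma. Dock2 changed sign in 5 of the 16 alternatives. The homologues Nox1, Nox3, Nox4, Duox1 and Duox2, their partners Noxo1, Noxa1, Duoxa1 and Duoxa2, and the proton channel gene Hvcn1 were below the filter, and Nox1, with 0.341 and 0.680 FPKM, was the highest of them in PGAM5 KD cells.

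Of 23 other genes of peroxide and superoxide defence 19 passed the filter, of which 5 were higher, 4 lower and 10 not past the threshold, with a median log2 fold change of -0.042. Over all genes tested 16.8% were higher and 14.9% lower. The count of defence genes called lower was 6 with quantile normalization or TPM, which added the peroxiredoxin gene Prdx1 and the thioredoxin gene Txn1. With FPKM these had log2 fold changes of -0.09 and -0.09 (adjusted p = 0.0517 and 0.118 from limma), and Prdx1 passed in 5 of 16 alternative fits. The changes of largest size were those of the glutaredoxin gene Glrx (8.24 to 15.7 FPKM, log2 fold change 0.86), the peroxiredoxin gene Prdx5 (32.5 to 56.5 FPKM, 0.78), the thioredoxin reductase gene Txnrd1 (104 to 68.2 FPKM, -0.61), the glutamate-cysteine ligase gene Gclc (33.8 to 23.1 FPKM, -0.53) and the sulfiredoxin gene Srxn1 (32.7 to 24.0 FPKM, -0.43). Their standard errors were between 0.03 and 0.07 and their adjusted p at most 0.00294 from limma. Gclm, the partner of Gclc, was the other gene lower in PGAM5 KD cells. Gpx4 (0.39), Prdx2 (0.21) and Prdx4 (0.22) were the other genes that rose, and the call of Prdx4 was lost with TPM. It was also lost without control replicate 2 or 3 or PGAM5 KD replicate 3, with an adjusted p of at most 0.105 and a log2 fold change of at least 0.14 over all 16 alternatives. Sod3, Gpx7 and Gpx8 were at 0 in all libraries, and Gpx3 was below the filter.

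**Figure D4:**
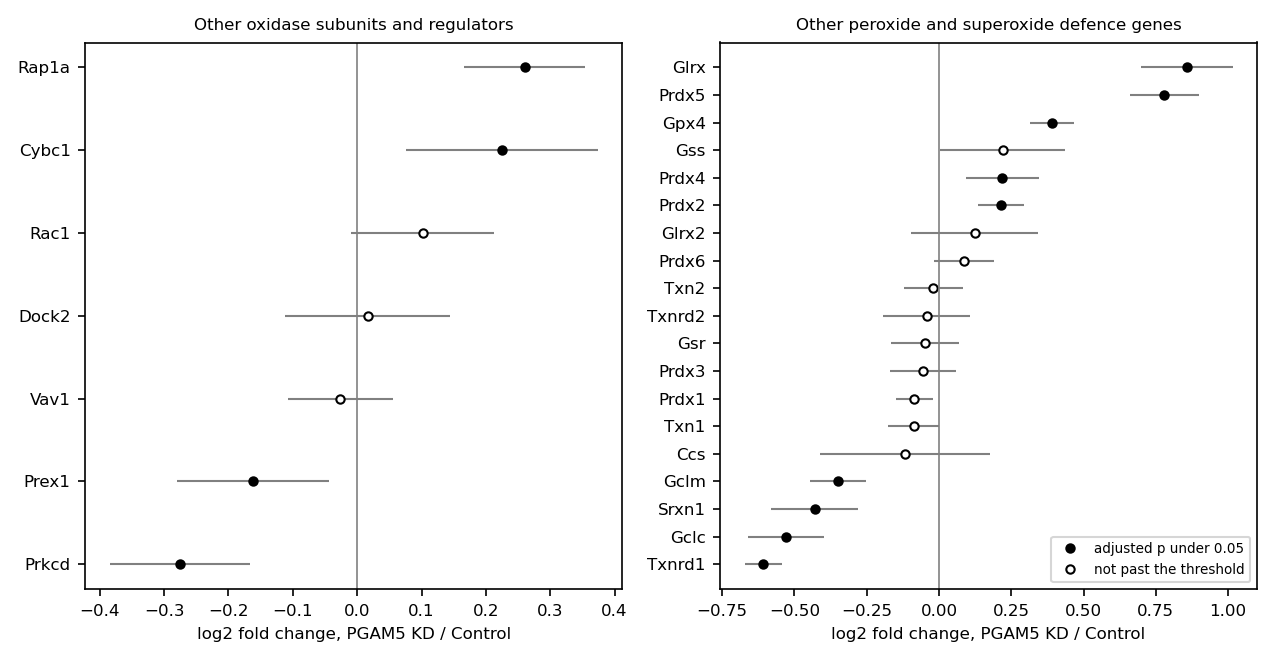
Log2 fold change of PGAM5 KD against control (horizontal axes) with its 95% interval for the 7 other oxidase genes (left) and the 19 other defence genes (right) that passed the filter on FPKM, filled where the adjusted p was under 0.05. Each panel has filled points on both sides of 0, from Prkcd (-0.28) to Rap1a (0.26) on the left and from Txnrd1 (-0.61) to Glrx (0.86) on the right.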

How the data were processed

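RNA from 6 libraries was measured by poly(A) RNA-seq. The authors deposited FPKM, 1 table per library, with no scaling between libraries beyond depth. The submitters' processing notes name HISAT2 2.0.5, featureCounts 1.5.0-p3 and mm10, and whether counting used strand is not given in the sources used here. Names, positions and exon lengths came from GENCODE M21 (GRCm38), which held 54495 of 54532 genes. FPKM times exon length gave whole fragments within 0.01 for 96.8% to 97.1% of values under 1000 fragments. Replicates of a group differed by more than counting noise (chi-square over degrees of freedom 4.68 to 7.79) and were all kept as separate libraries.

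Genes averaging 1 FPKM or more over the libraries, 10540 in all, were fitted as log2(FPKM + 1) using limma 3.58.1 (R 4.3.3; trend, two-sided, Benjamini-Hochberg over all genes), and called at an adjusted p under 0.05. The code was tested on simulated data. Alternatives were a pseudocount of 0.1, no filter, a filter at 5 FPKM, quantile normalization, TPM, median centring, no trend, array weights, voom, a replicate block, leaving out each library, levels per coding transcript (added after the data were seen), and summing Sod1 with its pseudogenes (blastn 2.17.0, at least 85% identity over 200 bases of coding sequence). Genes named are the 9 members, Pgam5, list genes past the filter, up to 5 defence genes by size of change (others from the list were chosen after their values were seen), markers, and the 3 genes nearest to the most changed member. The members and lists were chosen with earlier results of these data known, and a gene of the oxidase list is not reported here. Figures used Python 3.11.15 and matplotlib 3.10.9.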

Additional observations from a re-analysis of the deposited data

How the results depend on the processing

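Over 16 alternative fits Cybb, Ncf4 and Cat kept direction and call, with log2 fold changes from -0.58 to -0.47, from -0.40 to -0.27 and from -0.73 to -0.61. With quantile normalization the log2 fold change was -0.039 for Cyba, -0.0038 for Sod1 and -0.020 for Gpx1, against the main direction, and 0.087 for Ncf1 and 0.021 for Rac2, no longer past the threshold. With TPM it was -0.000065 for Cyba, and 0.085 for Ncf1, 0.023 for Rac2 and 0.053 for Gpx1 lost their calls, while Sod2 gained one (-0.17), as it did with voom (-0.11). TPM divides by the summed FPKM of a library, which was higher in every PGAM5 KD library, and it lowered the log2 fold change of genes by a median of 0.077. The log2 fold changes of Cyba and Sod1 with FPKM, 0.078 each, were of that size. Rac2 at 0.10 also lost its call with no filter (adjusted p = 0.0507 from limma) and with no trend (0.108), where Gpx1 at 0.13 lost its own. Leaving out 1 library gave 0.092 to 0.11 for Rac2. Why the summed FPKM differed between the groups, and why the other settings moved calls, was not tested.

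The 2 oxidase genes called higher became 1 with no filter or no trend, 0 with quantile normalization or TPM, and 1 to 2 on leaving out 1 library. The 1 enzyme called higher became 0 with quantile normalization, TPM or no trend, and the 1 called lower became 2 with TPM or voom. The 2 other oxidase genes called higher became 1 with TPM or voom, and 1 to 2 on leaving out 1 library. The 2 other oxidase genes called lower became 1 with no filter, median centring or no trend, and 1 to 2 on leaving out 1 library. The 4 other defence genes called lower became 5 with the filter at 5 FPKM, array weights or voom and 6 with quantile normalization or TPM, and the 5 called higher were 4 or 5 throughout. Over all genes, 1088 rather than 1771 were higher with TPM. Genes higher by more than 1 on the log2 scale were 83, and 154 with a pseudocount of 0.1, 49 with a filter at 5 FPKM and 165 with voom, and those lower were 56, and 107, 27, 109 and, with TPM, 116.

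Same-numbered libraries did not deviate together (correlations -0.020, 0.016 and -0.052), so the numbers were not taken as pairs. With a replicate block Rac2 at 0.10 lost its call (adjusted p = 0.0658 from limma), leaving 1 oxidase gene higher, and 1 other oxidase gene was higher and 1 lower, while 1440 genes were higher and 1212 lower in all. At the depth of these libraries the counting error of a member was at most 2.62% of its value in any library.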
